A study of Mus musculus with 4 samples.

Results

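Toll-like receptors are membrane proteins by which macrophages detect microbial products and nucleic acids, and 10 of the mouse genes were followed here in macrophages of the dermis: Tlr1, Tlr2, Tlr4, Tlr5 and Tlr6, whose proteins act at the cell surface, and Tlr3, Tlr7, Tlr8, Tlr9 and Tlr13, whose proteins act in endosomes. The genes were chosen by name, with earlier results of these data known. Each of the 10 was represented on the array by 1 transcript cluster (a group of probes summarised into 1 value) that carried a single gene symbol, and they are 10 of 22180 genes named in this way. The samples were macrophages sorted from digested ear skin of untreated adult C57Bl/6 mice of genotype Cx3cr1+/gfp, in which a GFP reporter occupies 1 allele of the gene for the fractalkine receptor CX3CR1, so that fluorescence follows the activity of that gene and all animals carry a single intact copy. Of the 4 arrays, 2 were of CX3CR1low and 2 of CX3CR1bright cells, each from a pool of 3 to 6 mice, and the replicates of a subset came from independent litters. Surface receptors recognise lipoproteins, lipopolysaccharide and flagellin on whole microbes, while endosomal receptors recognise RNA or DNA released from microbes or dying cells inside the phagocyte. Nearly all of them signal through the adaptor MyD88, TLR3 signals through TRIF, and TLR4 uses both. The endosomal receptors depend on the chaperone UNC93B1 to leave the endoplasmic reticulum and on lysosomal proteases to become active.

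The values are log2 levels made by RMA, and the arrays had medians of 3.65 to 3.68, near which a level can be background. The labels were checked with the gate gene and with marker lists. Cx3cr1 stood at 3.63 and 3.60 in CX3CR1low and at 8.42 and 8.44 in CX3CR1bright cells. All 11 macrophage markers found lay above the array median on all 4 arrays, and their summed log2 level was 114.6 and 115.0 in CX3CR1low and 112.0 and 111.6 in CX3CR1bright cells. The arrays also carried transcripts listed as markers of other skin cells, and which cells these came from was not tested. The summed level of 9 conventional dendritic cell markers was 53.5 and 55.2 in CX3CR1low and 60.6 and 60.8 in CX3CR1bright cells, with 6 of 9 differences above 0. For 5 Langerhans cell markers the sums were 26.1 and 26.2 against 31.5 and 36.3 (5 of 5 above 0), for 8 fibroblast markers 49.3 and 48.8 against 56.1 and 57.6 (8 of 8), and for 9 keratinocyte markers 50.8 and 45.1 against 52.9 and 68.4 (8 of 8 tested). Monocyte markers (6 found, 5 above 0) summed to 36.1 and 30.0 against 39.6 and 35.3, and T cell markers (4 found, 3 of 3 tested above 0) to 16.7 and 16.4 against 21.8 and 17.2. The 7 mast cell markers had 6 of 6 tested differences below 0, with sums of 49.5 and 50.04 against 47.1 and 46.5. Of 7 plasmacytoid dendritic cell markers, 4 (Siglech, Bst2, Tcf4 and Cox6a2) lay above the median on all 4 arrays and Spib, Ccr9 and Klk1 below it on all, with sums of 38.6 and 39.6 against 39.0 and 39.1. Of 9 neutrophil markers 6 were below the median on every array and 1 above it on every array. Of 5 B cell markers Cd79a and Ms4a1 were below it on every array, and 0 were above it on every array. Cd79b read 5.01 and 5.08 in CX3CR1low and 5.50 and 3.44 in CX3CR1bright cells, and Blk and Pax5 were above the median on 2 arrays each. For 7 endothelial markers the sums were 29.5 and 30.9 against 29.8 and 26.6, with 4 of 5 tested differences below 0. Among them Cdh5 read 6.10 and 7.09 against 5.71 and 4.07. For 5 melanocyte markers the sums were 19.0 and 20.0 against 18.4 and 21.5 (2 of 4 tested below 0). Of all tested genes 57.5% had a difference below 0. The part of any of these cells in the receptor values below was not tested. In such bulk samples fewer cells of a type and less RNA per cell cannot be told apart.

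The first comparison asks how the receptors differed between the subsets. Surface receptors went both ways in CX3CR1bright against CX3CR1low cells, from Tlr1, whose level was 2.29-fold higher, to Tlr5, whose level was 2.11-fold lower. All 5 endosomal receptors had differences below 0, the largest that of Tlr7 at 1.70-fold. None of the 10 passed an adjusted p of 0.05 across the 13133 genes tested (limma), where 18 genes or 0.137% did. At an unadjusted p under 0.05, Tlr1 was the 1 member higher and Tlr5, Tlr4, Tlr7 and Tlr3 were the 4 lower, against 7.03% and 11.8% of all tested genes. The groups did not overlap for 2 members on the higher side (background 18.9%) and for 5 on the lower side (background 31.5%). All 10 members lay above the array median on all 4 arrays and entered the test. Each difference below is the CX3CR1bright mean less the CX3CR1low mean, in log2 units, followed by limma's SE; SDs are over the n = 2 arrays of a subset.

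**Figure D1:**
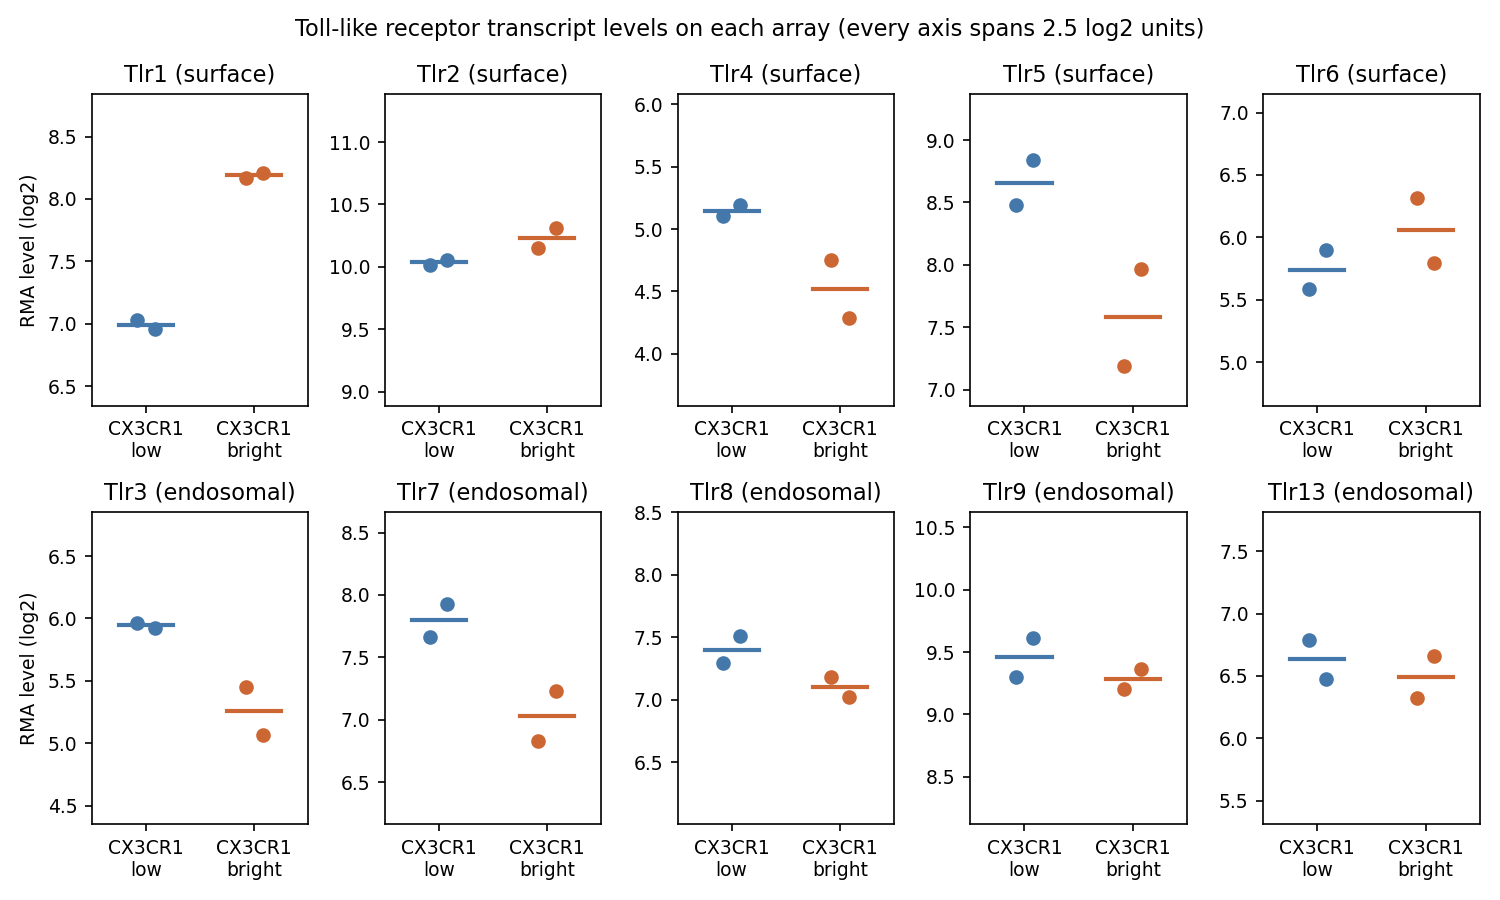
RMA log2 level of each receptor on each array, with CX3CR1low arrays in blue, CX3CR1bright arrays in orange and a bar at the mean of the n = 2 arrays. The panels span equal ranges, and the gap between subsets is widest for Tlr1, where the CX3CR1bright arrays read 8.17 and 8.21 and the CX3CR1low arrays 7.03 and 6.96.

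TLR2 recognises bacterial lipoproteins in a pair with either TLR1, for triacylated lipopeptides, or TLR6, for diacylated ones. Tlr1 read 7.03 and 6.96 in CX3CR1low and 8.17 and 8.21 in CX3CR1bright cells. Both CX3CR1bright arrays were above both CX3CR1low arrays, and the replicates of a subset lay within 0.067 of each other. The means were 6.99 ± 0.047 and 8.19 ± 0.029 (SD, n = 2), and the difference was 1.20 ± 0.18 with a 95% interval of 0.74 to 1.65 and an adjusted p of 0.0845 (limma, unadjusted p = 0.00093). It was the 144th smallest p of 13133, and 98.0% of tested genes had a lower difference. The call depended on the set of genes and the variance model: the adjusted p was 0.0265 with a stricter filter on dim genes and 0.0306 with an intensity trend in the variance, with the same difference of 1.20, and over all 13 alternatives it ran from 0.0265 to 0.482. On the same CX3CR1bright arrays the conventional dendritic cell, Langerhans cell, fibroblast, keratinocyte and T cell marker sums given above were higher too. Their part in the Tlr1 level was not tested.

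The partners of Tlr1 differed less. Tlr2 read 10.02 and 10.05 in CX3CR1low and 10.15 and 10.32 in CX3CR1bright cells. The CX3CR1bright arrays were higher without overlap, but by 0.10 at the nearest, while those arrays differed from each other by 0.16. The difference was 0.20 ± 0.19 (95% interval -0.27 to 0.67, limma adjusted p = 0.620), so a change of the size of that of Tlr1 lay outside the interval. Tlr6 read 5.58 and 5.90 in CX3CR1low and 6.32 and 5.80 in CX3CR1bright cells. The subsets overlapped, with 1 CX3CR1bright array between the CX3CR1low arrays, and the difference was 0.32 ± 0.26 (95% interval -0.34 to 0.97, limma adjusted p = 0.566). It was 0.058 without CX3CR1bright replicate 1 and 0.58 without CX3CR1bright replicate 2. Tlr1 and Tlr6 are neighbouring genes of closely related sequence, and how far their probes share signal was not tested.

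TLR5, the receptor for bacterial flagellin, was the surface receptor with the largest negative difference. Tlr5 read 8.48 and 8.84 in CX3CR1low and 7.19 and 7.97 in CX3CR1bright cells. Both CX3CR1bright arrays were lower, and the nearest arrays of the subsets lay 0.51 apart, less than the 0.78 between the CX3CR1bright arrays themselves. The means were 8.66 ± 0.26 and 7.58 ± 0.55 (SD, n = 2), and the difference was -1.08 ± 0.32 (95% interval -1.88 to -0.27, limma adjusted p = 0.180). It ran from -0.69 without CX3CR1bright replicate 1 to -1.47 without CX3CR1bright replicate 2. Several marker sums also differed between CX3CR1bright replicates 1 and 2. They were 52.9 and 68.4 for keratinocyte and 31.5 and 36.3 for Langerhans cell markers. Those of T cell (21.8 and 17.2), monocyte (39.6 and 35.3) and endothelial markers (29.8 and 26.6) went the other way. The part of any of these cells in the Tlr5 level was not tested.

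TLR4 is the receptor for bacterial lipopolysaccharide, which CD14 delivers and which binds in the pocket of the co-receptor MD-2, the product of Ly96. Tlr4 read 5.10 and 5.19 in CX3CR1low and 4.75 and 4.29 in CX3CR1bright cells. The CX3CR1bright arrays were lower without overlap, and replicate 2 lay 0.61 above its array median, so that background may limit the difference. It was -0.63 ± 0.23 (95% interval -1.21 to -0.041, limma adjusted p = 0.240) and ran from -0.39 without CX3CR1bright replicate 2 to -0.86 without CX3CR1bright replicate 1. Ly96 read 5.45 and 5.89 in CX3CR1low and 4.46 and 4.79 in CX3CR1bright cells, again without overlap, with a difference of -1.04 ± 0.25 (limma adjusted p = 0.136). Cd14 did not share that direction. It read 11.66 and 11.65 against 12.00 and 11.91, a difference of 0.30 ± 0.18 (limma adjusted p = 0.437).

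**Figure D2:**
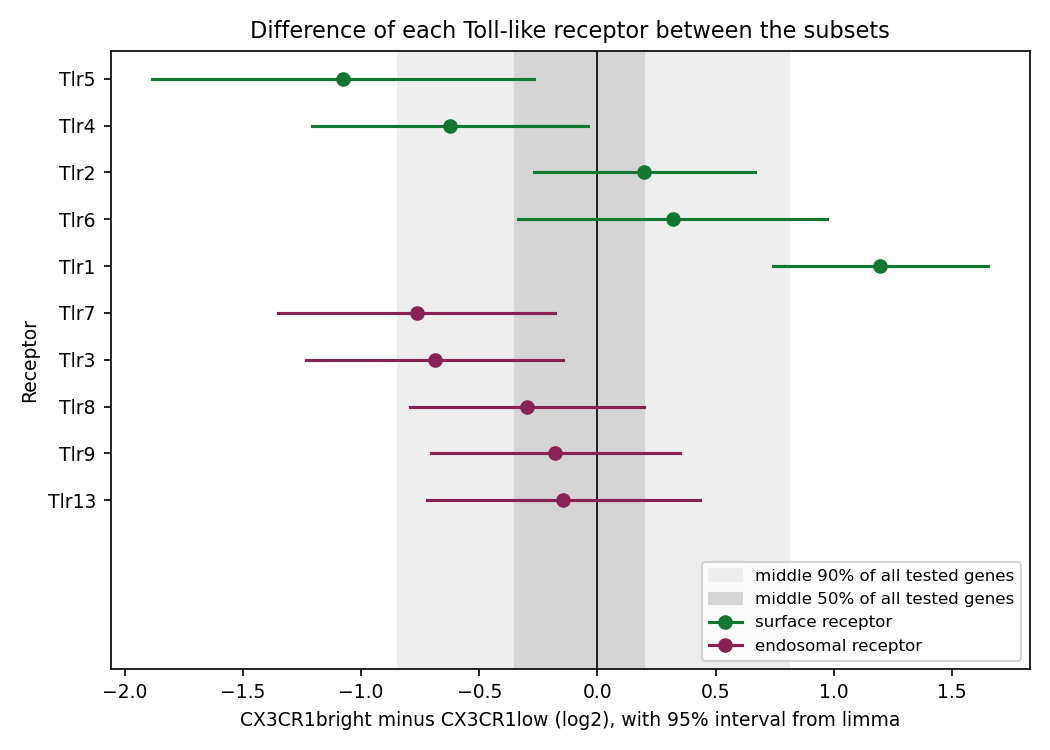
Difference of each receptor in log2 units (CX3CR1bright less CX3CR1low) with its 95% interval from limma, surface receptors in green and endosomal receptors in purple. Grey bands hold the middle 90% (-0.84 to 0.81) and 50% (-0.35 to 0.20) of the differences of 13133 tested genes; Tlr1 and Tlr5 are the members whose points lie outside the wider band.

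Sequence before the transcription start was compared for the members with the largest differences. RefSeq promoter windows (GRCm38.p6) were held for 8 of the 10 genes, in 10 windows, and not for Tlr4 and Tlr7. The 250 bases before the start were searched on both strands for 6 motifs of factors active in macrophages or of the core promoter. The letters searched for the PU.1 type of ETS factor were GAGGAAG, and those of the TATA box in the core promoter were TATAAA. The other motifs were GGAANNGAA (composite of ETS and IRF), GAAANNGAA (interferon response), GGNNTTTCC (NF-kB) and TTGCNNAA (C/EBP). The composite and the interferon response motif can share bases, and overlapping matches were kept. Tlr1 and Tlr5 are shown as the members with the largest difference in each direction, and Tlr6 as the neighbour of Tlr1 (for Tlr1 and Tlr6, the more upstream of their 2 annotated starts). Capitals mark every match to any of the 6 motifs.
Tlr1, chr5:64933559-64933808, minus strand: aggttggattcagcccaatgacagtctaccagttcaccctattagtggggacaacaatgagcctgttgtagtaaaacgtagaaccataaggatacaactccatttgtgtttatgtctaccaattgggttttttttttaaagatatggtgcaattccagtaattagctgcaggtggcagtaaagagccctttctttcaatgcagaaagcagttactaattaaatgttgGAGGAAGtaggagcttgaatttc
Tlr6, chr5:64960049-64960298, minus strand: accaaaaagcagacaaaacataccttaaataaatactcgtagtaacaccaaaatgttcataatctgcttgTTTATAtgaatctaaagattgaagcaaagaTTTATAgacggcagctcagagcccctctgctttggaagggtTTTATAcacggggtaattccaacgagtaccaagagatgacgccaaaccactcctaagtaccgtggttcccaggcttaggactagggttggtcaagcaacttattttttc
Tlr5, chr1:182954538-182954787, plus strand: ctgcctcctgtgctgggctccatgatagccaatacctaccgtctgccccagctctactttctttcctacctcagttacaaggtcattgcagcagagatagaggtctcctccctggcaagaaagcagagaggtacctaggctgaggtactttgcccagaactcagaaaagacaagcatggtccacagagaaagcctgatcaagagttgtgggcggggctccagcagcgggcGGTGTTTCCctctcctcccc
In the Tlr1 window the capitals are GAGGAAG, from -23 to -17 relative to the start, a motif held by 10.6% of all 32851 windows and by Tlr1, Tlr9 and Tlr13 among the members. In the Tlr6 window they are the TATA box letters on the opposite strand, at 3 places (12.4% of all windows, and Tlr6 and Tlr8 among the members). These run from -180 to -175, -150 to -145 and -109 to -104. On the gene's own strand, such letters most often started at -30 or -29 over all windows. In the Tlr5 window they are the NF-kB letters, from -20 to -12, which 4.93% of all windows held and, among the members, those of Tlr5 and Tlr3. The interferon response letters were found for Tlr6, in the window of its other start, and for Tlr8, and in 7.13% of all windows. The C/EBP letters were found for Tlr3, Tlr6 and Tlr8 and in 9.56% of all windows, and the composite letters in 6.99% and for 0 members. The matches describe letters and not bound sites.

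Among the endosomal receptors, Tlr7 and Tlr3 had the larger differences. TLR7 recognises single-stranded RNA. Tlr7 read 7.66 and 7.93 in CX3CR1low and 6.83 and 7.23 in CX3CR1bright cells. The CX3CR1bright arrays were lower without overlap, by 0.43 at the nearest, and differed by 0.40 from each other. The means were 7.80 ± 0.19 and 7.03 ± 0.28 (SD, n = 2), with a difference of -0.77 ± 0.23 (95% interval -1.35 to -0.18, limma adjusted p = 0.184). Tlr8 is the neighbour of Tlr7 on the X chromosome and encodes its closest relative, which senses single-stranded RNA in humans. It read 7.29 and 7.51 in CX3CR1low and 7.18 and 7.02 in CX3CR1bright cells. There was no overlap, with 0.11 between the nearest arrays, and the difference was -0.30 ± 0.20 (95% interval -0.79 to 0.20, limma adjusted p = 0.476).

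TLR3 binds double-stranded RNA and, unlike the other members, does not use MyD88. Tlr3 read 5.96 and 5.93 in CX3CR1low and 5.45 and 5.06 in CX3CR1bright cells. The CX3CR1low arrays lay within 0.039 of each other and above both CX3CR1bright arrays. The means were 5.95 ± 0.028 and 5.26 ± 0.27 (SD, n = 2), and the difference was -0.69 ± 0.21 (95% interval -1.23 to -0.15, limma adjusted p = 0.190). The window before its start is shown as that of the endosomal receptor, among those with a window, with the largest difference.
Tlr3, chr8:45410381-45410630, minus strand: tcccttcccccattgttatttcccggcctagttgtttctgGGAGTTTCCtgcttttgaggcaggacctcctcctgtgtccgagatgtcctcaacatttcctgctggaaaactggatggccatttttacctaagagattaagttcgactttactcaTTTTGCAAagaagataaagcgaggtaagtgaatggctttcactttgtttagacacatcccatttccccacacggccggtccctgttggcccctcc
Its capitals are the NF-kB letters from -210 to -202 and the C/EBP letters on the opposite strand from -95 to -88. Ticam1, the gene of TRIF, through which TLR3 signals, read 6.996 and 7.06 in CX3CR1low and 6.44 and 6.14 in CX3CR1bright cells. These subsets did not overlap either, and the difference was -0.74 ± 0.20 (limma adjusted p = 0.164).

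TLR9 recognises unmethylated CpG DNA and TLR13 a sequence of bacterial ribosomal RNA. Tlr9 read 9.30 and 9.62 in CX3CR1low and 9.20 and 9.36 in CX3CR1bright cells. Tlr13 read 6.79 and 6.48 in CX3CR1low and 6.32 and 6.66 in CX3CR1bright cells. For both genes the subsets overlapped and the replicates of CX3CR1low differed by more than the subset means did. The differences were -0.18 ± 0.21 for Tlr9 (95% interval -0.71 to 0.35, limma adjusted p = 0.705) and -0.14 ± 0.23 for Tlr13 (95% interval -0.72 to 0.43, limma adjusted p = 0.792). The intervals left room for differences of the size seen for Tlr3 in Tlr9 and Tlr13 alike.

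The second comparison sets surface against endosomal receptors, as differences between subsets, since levels of different probes cannot be compared. The median difference was 0.20 for the 5 surface and -0.30 for the 5 endosomal receptors, against -0.070 for all 13133 tested genes. Without CX3CR1bright replicate 1 the surface median was 0.058. After cyclic loess the endosomal median was -0.15 and the surface median 0.32, against 0.017 for all tested genes. All 5 endosomal receptors also passed the stricter filter on dim genes, and the median of the 7327 genes that passed it was -0.12. Surface differences spread from -1.08 to 1.20, and the mean log2 level of the 5 genes was 7.24 and 7.39 in CX3CR1low and 7.32 and 7.32 in CX3CR1bright cells, so that opposite differences cancelled in the mean. Endosomal differences spread from -0.77 to -0.14, and the mean level was 7.40 and 7.49 in CX3CR1low and 6.996 and 7.07 in CX3CR1bright cells. Of the surface receptors 2 of 5 were below 0 and of the endosomal receptors 5 of 5, where 57.5% of all tested genes were. Of the macrophage markers 8 of 11 were below 0 too, with a median of -0.34. The subsets did not overlap for 8 of these markers on the lower side (background 31.5%). A link between these markers and the receptors was not tested. The count of 5 endosomal receptors held under each of the 3 other scalings tried (quantile, median centring, cyclic loess), but narrowly for Tlr9 and Tlr13. Tlr9 stood at -0.057 after quantile normalization and -0.050 after cyclic loess, and Tlr13 at -0.045 and -0.0044. Median centring lowered all differences by the same amount, so it could not change the count. The count was 4 without CX3CR1low replicate 1 or CX3CR1bright replicate 1, where Tlr13 stood at 0.014 and 0.027. The contrast between the classes was not tested, and Tlr5 and Tlr4, which are surface receptors, had differences of -1.08 and -0.63, in the range of or beyond those of the endosomal receptors.

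**Figure D3:**
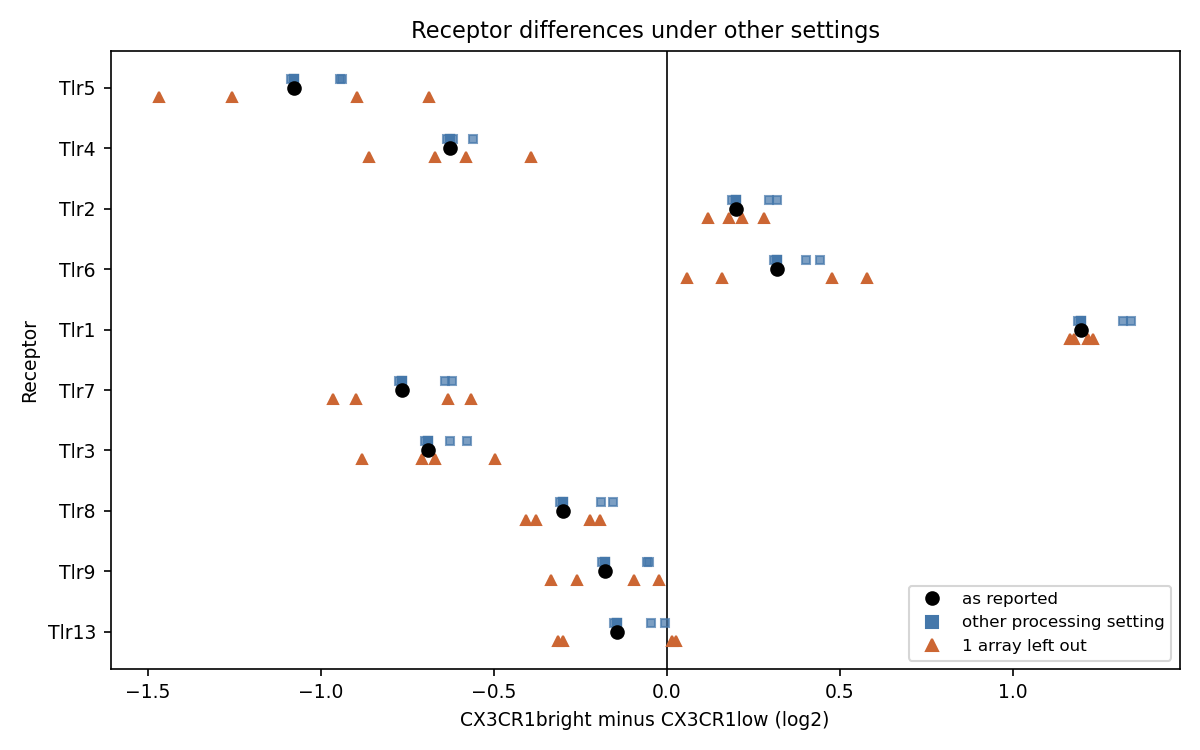
Difference of each receptor (log2) as reported (black), under the other processing settings (blue squares) and with 1 array left out (orange triangles). The sign is kept at every point for all receptors but Tlr13, whose values run from -0.31 to 0.027, and Tlr1 stays between 1.16 and 1.34. Filters, variance models, cluster averaging and the replicate block cannot change a difference, so their squares repeat the reported value. Where the subsets do not overlap, leaving out 1 array cannot change the sign.

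The pathway around the receptors was followed in 57 further genes in 7 lists, of which 47 were tested, 2 were too dim and 8 were not analysed here. None of the 47 passed over all genes (limma). At an unadjusted p under 0.05 there were 2 higher and 8 lower (background 7.03% and 11.8%), and the subsets did not overlap for 10 higher and 18 lower (background 18.9% and 31.5%). The median was -0.14, against -0.070 for all tested genes.

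Genes that fold, carry and process the receptors had a median of -0.26, with 8 of 12 below 0 (background 57.5%). The protease genes that trim endosomal receptors were among them: Ctsl read 9.57 and 9.54 in CX3CR1low and 8.42 and 8.31 in CX3CR1bright cells, a difference of -1.19 ± 0.18 (limma adjusted p = 0.0845), while Ctsb and Ctss each differed by -0.26 and Lgmn by -0.34. Unc93b1, the chaperone that the endosomal receptors need, read 10.51 and 10.59 against 10.17 and 10.18. The CX3CR1bright arrays were lower without overlap, with a difference of -0.37 ± 0.18 (limma adjusted p = 0.345). Slc15a4, an endolysosomal transporter needed for TLR7 and TLR9 signalling, differed by -0.56 ± 0.18 (limma adjusted p = 0.201). Pld3 and Pld4 encode nucleases that degrade the nucleic acid ligands of endosomal receptors, and their differences went opposite ways. Pld3 read 10.14 and 10.24 in CX3CR1low and 9.34 and 8.93 in CX3CR1bright cells, a difference of -1.05 ± 0.22 (limma adjusted p = 0.114), and Pld4 differed by 0.22 ± 0.18 (limma adjusted p = 0.587). The general chaperones Hsp90b1 and Cnpy3 differed by 0.044 and -0.073.

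Of the other co-receptors and ligand carriers, Lbp and Cd36 differed by -0.30 and -0.27. Cd180 and its partner Ly86, which form a receptor-like complex on B cells and macrophages, differed by -0.18 and 0.28. The adaptors had a median of -0.34, with 4 of 5 tested members below 0 (background 57.5%). Myd88 read 8.52 and 9.01 in CX3CR1low and 8.06 and 8.19 in CX3CR1bright cells, lower without overlap, with a difference of -0.64 ± 0.24 (limma adjusted p = 0.245). Tirap, which bridges MyD88 to TLR2 and TLR4, differed by -0.34 and Ticam2, which bridges TRIF to TLR4, by -0.052, both with overlap. Sarm1 was below every array median and not tested.

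Kinases and ligases downstream had a median of -0.092, with 9 of 12 below 0 (background 57.5%). Irak2, a kinase that sustains signalling, was the list member with the largest difference. It read 8.79 and 8.80 in CX3CR1low and 9.65 and 9.31 in CX3CR1bright cells, a difference of 0.68 ± 0.21 (limma adjusted p = 0.185), and Tab2, an adaptor of the kinase TAK1, differed by 0.45 ± 0.21 (limma adjusted p = 0.330). Irak1 differed by -0.34 and Ikbkg by -0.43, neither with overlap. Irf8, Irf3 and Irf7 differed by -0.42, 0.17 and -0.14.

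Negative regulators had a median of 0.26, with 6 of 8 above 0, where 57.5% of all tested genes were below 0. Tnip1, which restrains NF-kB, read 8.23 and 8.43 in CX3CR1low and 8.94 and 9.01 in CX3CR1bright cells, a difference of 0.64 ± 0.19 (limma adjusted p = 0.179). Irak3, the inhibitory member of the kinase family, read 7.50 and 7.61 against 7.93 and 8.15, a difference of 0.48 ± 0.19 (limma adjusted p = 0.275). Tollip went the other way, from 8.39 and 8.64 to 7.59 and 7.81, a difference of -0.81 ± 0.21 (limma adjusted p = 0.150). These 3 genes had no overlap between the subsets.

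**Figure D4:**
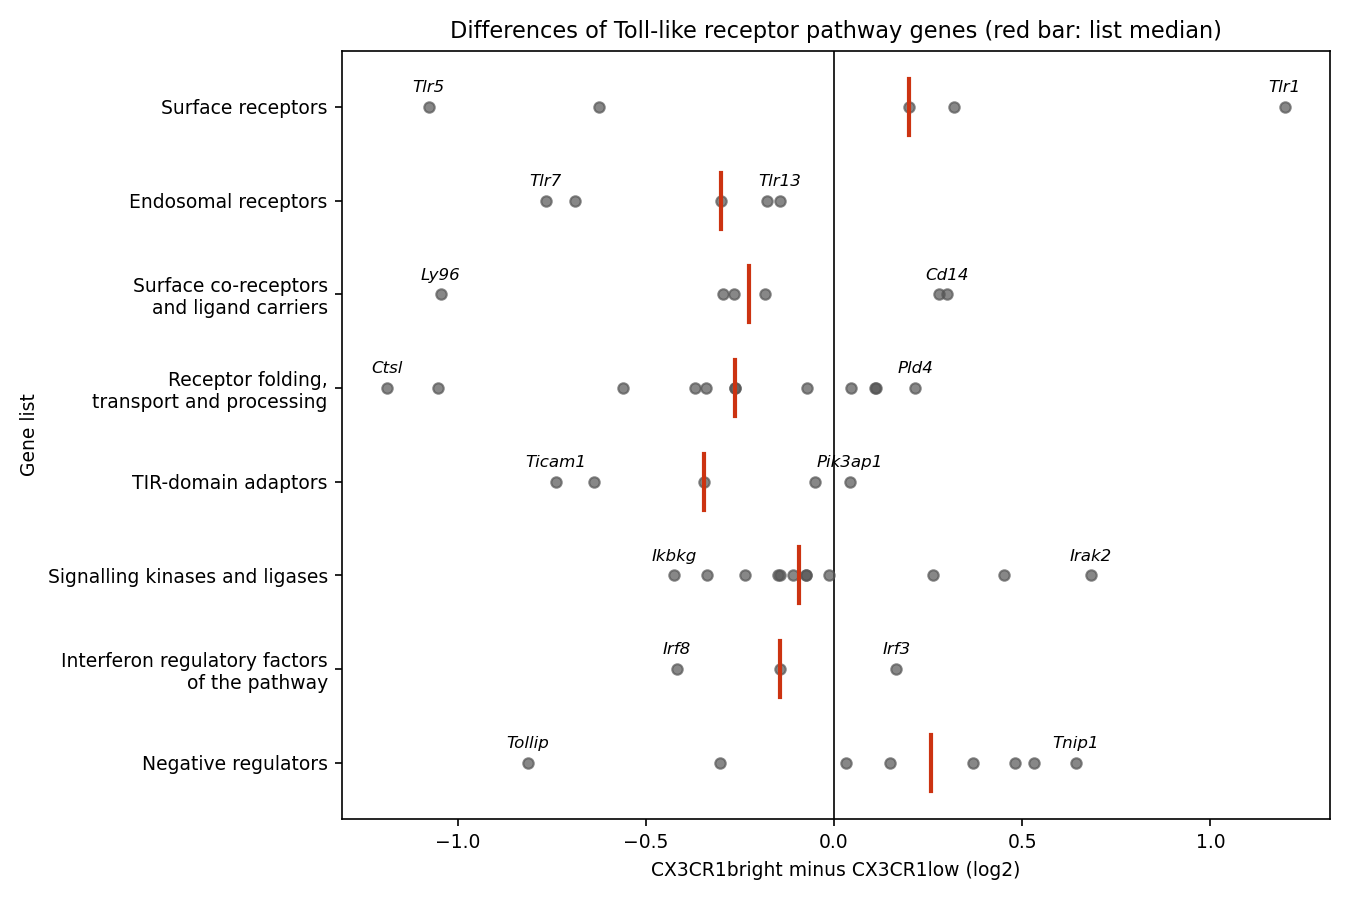
Difference between subsets (log2) of each tested gene of the 2 receptor classes and of 6 pathway lists, 1 point a gene (the list of Tlr11 and Tlr12, with 1 tested gene, is not drawn), with a red bar at the list median and the outermost genes named. Tlr1 (1.20) and Ctsl (-1.19) are the outermost points, and the drawn list medians lie between -0.34 (adaptors) and 0.26 (negative regulators).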

How the data were processed

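Per the labels' protocols, RNA came from a Qiagen micro kit and was labelled by the WT Pico method. The deposited values are log2 levels per transcript cluster, which, per the submitters' processing notes, the authors made with RMA in Affymetrix Expression Console 1.4. The method removes background, equalises arrays, summarises probes and compresses differences of dim genes. The genome build is not given in the sources used here. Of 34390 clusters, 23521 carried 1 gene symbol, and the highest cluster by mean stood for each of 22180 genes. The 10 receptors matched RefSeq by Entrez identifier, with unchanged symbols. Genes above the array median on at least 2 arrays were tested, 13133 in all.

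The subsets were tested in R 4.3.3 by limma 3.58.1 (lmFit, eBayes, two-sided, Benjamini-Hochberg adjustment over all tested genes, threshold 0.05), with 2 residual degrees of freedom and 3.28 from the prior. Precision is limited by the number of arrays, and the spread tested is that between pools of mice. On simulated data of this comparison (13133 genes), the procedure recovered 2.80% of changes of 1 log2 unit and 70.8% of changes of 2. Over 5 simulations, 250 genes in all were given a change of each size. Most genes were left unchanged, and variances were drawn from limma's prior. Recovery depends on the share of changed genes, so these rates hold for that setting. The members, the lists and the rule for named genes (all members and, of each pathway list, at least the 2 largest differences) were chosen with earlier results of these data known. For likeness of pattern, the 5 nearest tested genes were named for the members with the largest difference each way. Alternatives were filters, scalings, variance models, clusters averaged per gene, a replicate block and each array left out.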

Additional observations from a re-analysis of the deposited data

How the results depend on the processing

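The count of 18 genes past the threshold was 1 without a filter on dim genes, 464 with a stricter one, 1 after quantile normalization, 33 after cyclic loess, 308 with an intensity trend and 1 with a robust prior (limma). With 1 array left out it ran from 0 to 154, the latter without CX3CR1bright replicate 1; it was 0 when CX3CR1low replicate 1, CX3CR1low replicate 2 or, of CX3CR1bright, replicate 2 was dropped (unadjusted p under 0.05 for 1453, 1212 and 2180 genes). The median difference of the surface receptors was 0.30 after quantile normalization and 0.32 after cyclic loess, and 0.058 to 0.22 with 1 array left out, the lowest without CX3CR1bright replicate 1. That of the endosomal receptors was -0.19 and -0.15 after the same scalings, and -0.41 to -0.30 with 1 array left out. Of the 10 receptors, 9 kept their sign under all settings run. Filters, variance models, cluster averaging and the replicate block leave each receptor's difference unchanged by construction. Only the other scalings and the left-out arrays could move a sign. For receptors without overlap between the subsets, a left-out array could not move it either. Tlr13 reversed to 0.014 without CX3CR1low replicate 1 and to 0.027 without CX3CR1bright replicate 1, within a range of -0.31 to 0.027 with 1 array left out. Tlr1 passed with the stricter filter and with the trend, where its adjusted p was 0.0265 and 0.0306, and its adjusted p over all settings ran from 0.0265 to 0.482; the filter leaves 7327 genes tested and drops Tlr4, and for the other changes the cause was not tested. The replicate numbers are not said to mark litters, and deviations of same-numbered arrays correlated at 0.16 over genes. With a replicate block 0 genes passed (limma, 2637 at an unadjusted p under 0.05), so no receptor did. In this balanced layout the block cannot change a difference, so the class medians of 0.20 and -0.30 are the same by construction. Dim levels, such as that of Tlr4, limit the folds that can be seen.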

Other observations

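The mouse has 2 further endosomal receptors that recognise profilin of protozoan parasites, Tlr11 and Tlr12, both at dim levels here. Tlr11 read 4.60 and 4.21 in CX3CR1low and 3.88 and 3.61 in CX3CR1bright cells, a difference of -0.66 ± 0.23 (limma adjusted p = 0.222), with 1 CX3CR1bright array below its median. Tlr12 lay below the median on all arrays and was not tested.

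The genes whose values over the 4 arrays, centred per gene, lay nearest to those of Tlr1 were Cd276, a B7-type surface protein, Mmp2, a gelatinase, Zbtb18, Atp8b4 and Poglut1, at distances of 0.078 to 0.12 log2 units. Nearest to Tlr5 were Dusp7, a phosphatase of MAP kinases, Stxbp5, Tuft1, Nqo2 and Cln6, at 0.088 to 0.16. With 4 arrays such likeness is common: of 11984 candidate genes, 276 lay within 0.5 of Tlr1 and 188 within 0.5 of Tlr5.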
